A study of Mus musculus with 2 samples.

Results

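The genes described here carry glucose into the cell, split it to pyruvate, turn pyruvate into lactate or pass it to the mitochondrion, and store it as glycogen. They are 36 genes named by function, and all 36 had at least 1 probe set assigned to them alone, of 20422 genes with such a value. A probe set is a small group of probes against 1 exon or part of an exon. Levels are given on the log2 scale as the middle value among the probe sets of a gene. A gene's difference was the median over the same probe sets of light damage minus control, so it need not equal the difference between both levels.

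Müller glia (MG) are known to take up glucose from the blood, to hold the glycogen of the retina and to release lactate that neurons can burn. Photoreceptors are themselves known for aerobic glycolysis, in which most glucose leaves the cell as lactate although oxygen is present, and hexokinase 2 is their characteristic first enzyme. Pyruvate enters the citric acid cycle through the pyruvate dehydrogenase complex, which kinases of the Pdk family switch off.

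The mRNA of reporter-sorted MG was measured with Mouse Gene ST arrays from Affymetrix, 1 for each condition. The control array received RNA of 12 undamaged adult retinas and the other that of 10 adult retinas taken a week after 8 h of white light at 10000 lux. MG were sorted by fluorescence after papain dissociation. The sort is described for mice that carried both Rlbp1-creERT2 and the R26-stop-flox-CAG-tdTomato reporter. In these mice the Rlbp1 promoter drives the inducible Cre and tamoxifen turns the red reporter on. For light damage, this line was crossed to the albino Swiss Webster strain, which carries the leucine form of Rpe65 that modifies susceptibility to light. A Hes5-GFP line was used as another MG reporter and was also crossed to Swiss Webster. The text does not name the reporter line of either array or the background of the control array, so background and light damage cannot be told apart. With 1 pooled array per condition there was no test. The SD printed after a difference is the spread over the probe sets of a gene, which is technical, and levels of different genes are not comparable because each probe set binds with its own strength.

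The sorted fractions held MG mRNA on both arrays, with a median level over 22 MG markers of 11.32 for the control, 10.96 for light damage and a median difference of -0.20. Their differences ran from -0.89 to 1.15, with 13 below 0, none lower by 1 or more and 1, Crym (1.15 ± 0.30), higher by 1 or more. Rod markers were also present on both arrays. The 17 of 18 rod markers with a value had median levels of 11.99 (control) and 10.85 (light damage), and the lowest of them in the control was at 8.63. All 17 were below 0, 9 were lower by 1 or more, and their median difference was -1.04. Cone markers had a median difference of -0.73, with 4 of 12 lower by 1 or more. Fewer cells of a type and less RNA per cell cannot be told apart in such pools. The female-specific transcript Xist was 9.79 in the control and 4.85 after light damage on its 1 probe set, and the sex of the pooled mice is not stated in the text. Pgk1, Pdk3 and Pdha1 are the X-linked genes of the set. Among 9 common control genes, 3 were lower by 1 or more (33.3%, beside 3.48% of all genes whose mean level reached 5). They were Hprt (-1.28 ± 0.95), Tfrc (-1.13 ± 0.90) and Tbp (-1.12 ± 0.78), and the median of all 9 was -0.11.

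After light damage, Hk2, Slc16a1 and Pfkfb2 were lower by 1 or more, which is a fold of at least 2, and no gene of the set was higher by that much. The largest positive difference was that of Pdk2, at 0.95. Under quantile normalization, and likewise with the loess trend of the difference removed, Hk2 and Slc16a1 passed, Pfkfb2 did not (-0.93 and -0.92), and Pdk2 was higher by 1 or more (1.02 and 1.03). Of the 35 genes whose mean level reached 5, 28 had a negative and 7 a positive difference (23 and 12 under both scalings), and their median was -0.33 with an SD over genes of 0.48. Over all 16541 genes at this level the median was -0.03 and 8711 were below 0. The 3 lower genes were 8.57% of the 35, where the share of all genes lower by 1 or more was 3.48% and the share higher by 1 or more was 1.75% (2.59% and 2.17% under quantile normalization). Most of the set was strongly expressed. Among genes whose mean level reached 9, where 7.22% of all 1760 genes were lower by 1 or more and 2.84% higher, the set had 3 of 24 lower (12.5%) and 0 higher. At this level the median was -0.36 for the 24 genes and -0.22 for all genes. Of the 24, 21 were below 0 (87.5%), beside 64.9% of all genes at this level. With a smaller step, 12 of the 35 genes of the set were at -0.5 or below and 1 at 0.5 or above. Over all genes whose mean level reached 5, the shares were 17.2% and 11.0%. These shares were not computed for genes whose mean level reached 9.

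**Figure D1:**
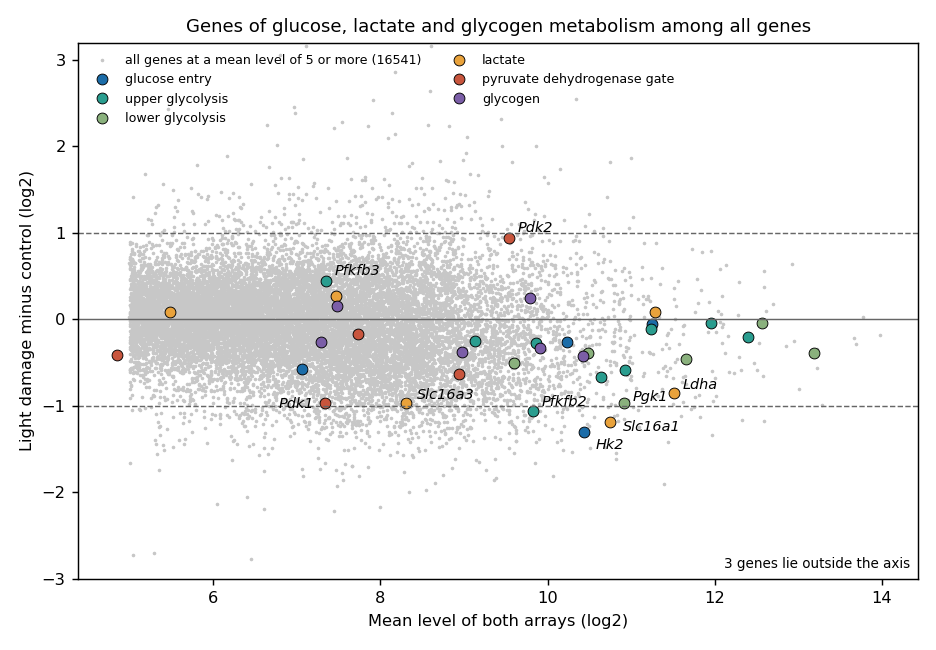
Difference between the arrays (light damage minus control, log2) against the mean level of both arrays (log2) for all 16541 genes whose mean level reached 5 (grey dots) and for the 36 genes of glucose, lactate and glycogen metabolism (large dots, coloured by role). Dashed lines mark a difference of 1 in either direction; Hk2, Slc16a1 and Pfkfb2 lie under the lower line, no gene of the set lies over the upper one, and the leftmost large dot is Pdk4, whose mean level was under 5.

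Many genes of this pathway are known targets of hypoxia-inducible factors, which bind a short core that ends in CGTG, and the promoters of 33 of the 36 genes were found in RefSeq (GRCm38.p6, 250 bases before to 50 after a start). The stretches below were chosen after the values were seen, for genes with the largest differences in either direction that hold the core as ACGTG. Capitals mark ACGTG on the printed strand or CACGT, the same core on the other strand; CACGTG reads as the core on both and is also the canonical E-box.
Hk2 (chr6:82774482-82774526, minus strand, 72 to 28 bases before the start): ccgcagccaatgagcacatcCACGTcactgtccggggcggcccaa
Pfkfb2 (chr1:130715822-130715863, minus strand): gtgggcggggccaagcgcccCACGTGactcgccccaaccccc
Slc16a1 (chr3:104638444-104638489, plus strand): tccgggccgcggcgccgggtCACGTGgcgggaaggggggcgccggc
Pgk1 (chrX:106186930-106186993, plus strand): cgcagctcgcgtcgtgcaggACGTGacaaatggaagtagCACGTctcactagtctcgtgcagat
Ldha (chr7:46845736-46845794, plus strand): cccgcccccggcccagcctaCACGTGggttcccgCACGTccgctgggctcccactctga
Slc16a3 (chr11:120949020-120949066, plus strand): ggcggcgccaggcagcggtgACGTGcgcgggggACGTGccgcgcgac
Pdk2 (chr11:95041472-95041517, minus strand): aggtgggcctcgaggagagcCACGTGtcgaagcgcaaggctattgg
The core ACGTG, searched on both strands, was in 21 of the 33 genes (63.6%), beside 21.8% of all 27025 genes with a promoter and 32.6% of the 1278 of them whose mean level reached 9. The other form, GCGTG, was also in 21 of 33, beside 35.2% of all genes and 60.5% of those at 9 or more. The E-box CACGTG was in 7 of 33 (21.2%), beside 8.09% and 13.8%. The photoreceptor homeobox core TAATCC, bound by Crx, was in 4 of 33 (12.1%), beside 8.14% and 8.45%. A gene counted if any of its promoters held the motif. Per promoter (49 of the set, 32851 of all genes), ACGTG was in 51.0% and 19.6%, and GCGTG in 55.1% and 32.4%. CACGTG was in 14.3% and 7.15%, and TAATCC in 8.16% and 7.06%. The core was not limited to genes with negative differences, as Pdk2 and Pfkfb3, both with positive ones, hold ACGTG, while neither of the Pdk1 promoters holds ACGTG and 1 holds GCGTG. Slc2a3, Slc16a7 and Bsg had no promoter in the table. A match is a description of letters and not of a bound site.

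Glucose enters cells through transporters such as Glut1, encoded by Slc2a1, and Glut3, encoded by Slc2a3. Slc2a1 was 11.20 in the control and 11.30 after light damage, and the median over its 11 probe sets was -0.06 ± 0.46, which turned positive under both scalings. The level and the median difference had opposite signs, and 7 probe sets were below and 4 above 0. Slc2a3 was 7.43 in the control and 6.68 after light damage, a difference of -0.57 ± 0.39 with 10 of 12 probe sets below 0.

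Hexokinase traps glucose in the cell as glucose 6-phosphate. Hk2 had the lowest difference of the set. It was 10.97 in the control and 9.91 after light damage, and the median over its 19 probe sets was -1.31 ± 0.72, a 2.48-fold lower value. Of these, 18 were below 0 and 15 were lower by 1 or more, with a range from -2.99 to 0.71. The probe set with the strongest signal was 13.86 in the control and 10.87 after light damage. Hk2 stood at rank 147 from the lowest of 16541 genes. Hk1, the form that most cells use, was 10.40 in the control and 10.07 after light damage. Its difference was -0.26 ± 0.77 with 19 of 25 probe sets below 0, and its strongest probe set gave -1.26. The median of Hk2 was lower than that of Hk1 by 1.05, and 18 of 19 Hk2 probe sets were below the Hk1 median. Pdc and Rp1, the rod markers with the lowest differences, were -1.91 ± 0.29 and -1.61 ± 1.03, and the part of rod RNA in the Hk2 value was not tested.

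**Figure D2:**
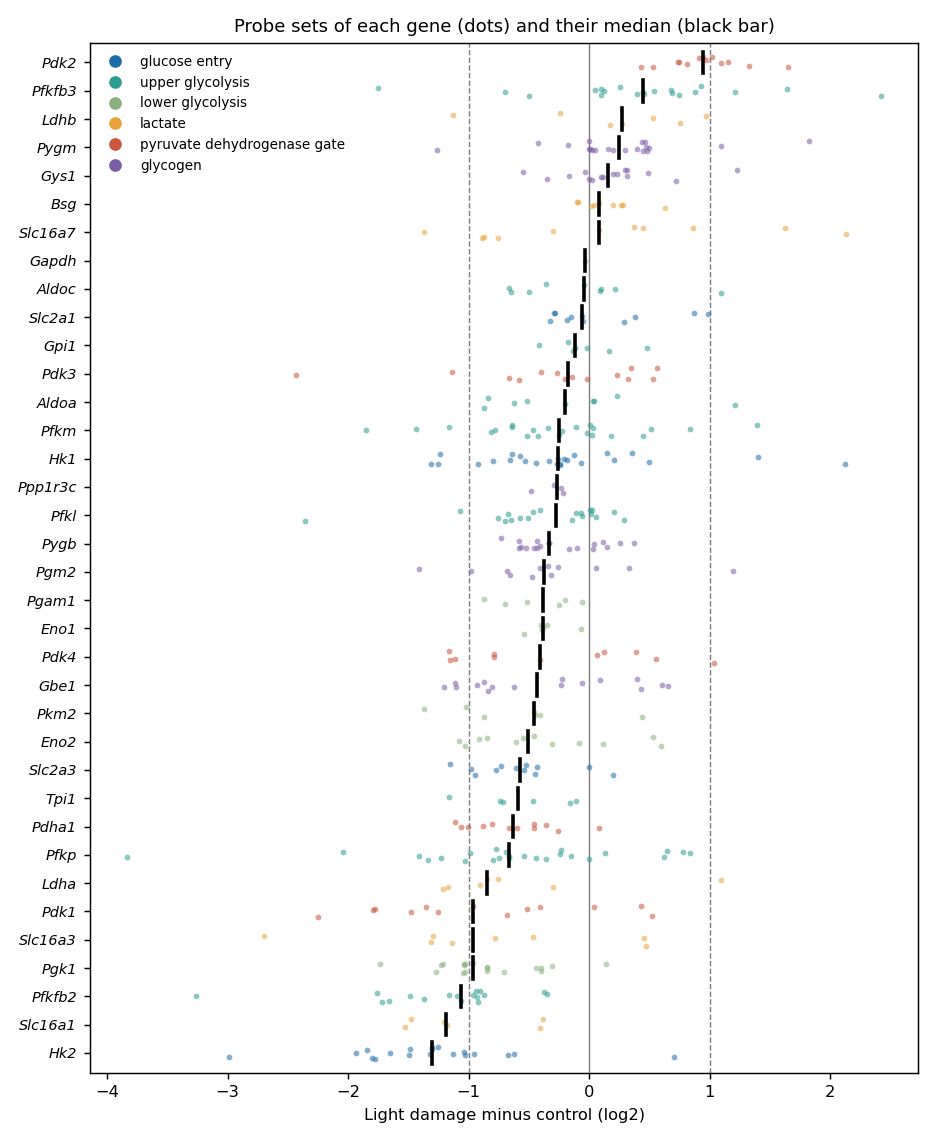
Difference (light damage minus control, log2) of each probe set (dots, coloured by role) and their median (black bar) for the 36 genes, ordered by the median. All Pdk2 probe sets lie to the right of 0 and all Pfkfb2 and Slc16a1 probe sets to the left, while those of Pfkp, Slc16a7 and Hk1 lie widely on both sides.

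Phosphofructokinase is the committed step of glycolysis, and its 3 subunits are encoded by Pfkl, Pfkm and Pfkp. Pfkl was 10.07 in the control and 9.67 after light damage (-0.27 ± 0.59, 14 of 20 probe sets below 0). Pfkm was 9.24 and 9.03 (-0.25 ± 0.72, 15 of 23 below 0). The platelet form Pfkp was 10.87 and 10.41, with -0.66 ± 0.98 and 19 of 25 probe sets below 0. Its probe sets ran from -3.83 to 0.84, so the median of Pfkp was smaller than their spread.

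The activity of phosphofructokinase is set by fructose 2,6-bisphosphate, which the Pfkfb enzymes make and remove. Pfkfb2 was 10.57 in the control and 9.08 after light damage. Its difference was -1.06 ± 0.66, a 2.09-fold lower value, and all 17 probe sets were below 0, of which 9 were lower by 1 or more. The call was lost under both scalings and with the strongest probe set (-0.93), where the sign stayed negative. Pfkfb3, a form with high kinase activity, was 7.09 in the control and 7.60 after light damage, with 0.45 ± 0.86 and 17 of 20 probe sets above 0. Both genes therefore had opposite signs, 1.51 apart, and 17 of 20 Pfkfb3 probe sets lay above the highest of Pfkfb2. By 1 or more, 3 Pfkfb3 probe sets were higher and 1 lower.

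The remaining upper enzymes had differences between -0.59 and -0.04, of which those of Gpi1, Aldoa and Aldoc turned positive under both scalings. Gpi1, glucose phosphate isomerase, was 11.33 in the control and 11.15 after light damage (-0.12 ± 0.29, n = 7 probe sets). Aldoa, the ubiquitous aldolase, was 12.50 and 12.30 (-0.20 ± 0.65, n = 9), and 1 further probe set shared with Aldoart1 gave -0.03. Aldoc, the aldolase typical of astroglia, was 12.17 and 11.73, yet the median over its 9 probe sets was -0.04 ± 0.55, with 5 below 0. The probe sets of triosephosphate isomerase were of 1 sign. Tpi1 was 11.08 in the control and 10.78 after light damage, with -0.59 ± 0.40 and all 6 probe sets below 0. As a group, the 9 genes of the upper steps had a median of -0.25, and 8 were below 0.

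In the lower steps, which yield ATP and pyruvate, all 6 genes were below 0, with a median of -0.42, and none was lower by 1 or more. Under both scalings Gapdh turned positive (0.20 and 0.21) and 5 were below 0. Gapdh rested on 1 probe set, at 12.59 in the control and 12.55 after light damage (-0.04). The number of this probe set stands among those of genes on chromosome 19 while Gapdh lies on chromosome 6, and 8 other probe sets shared between Gapdh and predicted genes had a median difference of 0.02. Pgk1, phosphoglycerate kinase, was 11.43 in the control and 10.39 after light damage, with -0.96 ± 0.43 and 18 of 19 probe sets below 0. Of these, 6 stand among genes of other chromosomes and 4 repeat values of others, 3 probe sets being both, and the 12 left after removing 7 gave -1.03, past the threshold. Pgk1 is X-linked, and the part of the sex mix, in which the arrays differ by Xist, was not tested.

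The other lower enzymes showed small differences of 1 sign. Pgam1, phosphoglycerate mutase, was 10.72 in the control and 10.25 after light damage, with -0.39 ± 0.32 over 6 probe sets, all below 0. The 4 probe sets that stand among genes of its own chromosome gave -0.23. Eno1, the broadly expressed enolase, was 13.29 in the control and 13.07 on the light damage array, with -0.39 ± 0.16 and all 6 probe sets below 0. This difference shrank to -0.12 under quantile normalization and -0.15 under loess. Eno2, the neuronal enolase, was 9.62 and 9.57, although the median over its 12 probe sets was -0.50 ± 0.58 with 9 below 0. Pyruvate kinase, listed as Pkm2, was 11.89 in the control and 11.43 after light damage, with -0.46 ± 0.58 and 6 of 7 probe sets below 0. Its strongest probe set gave -1.37, past the threshold, and a probe set shared with the predicted gene Gm6560 gave -0.93.

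**Figure D3:**
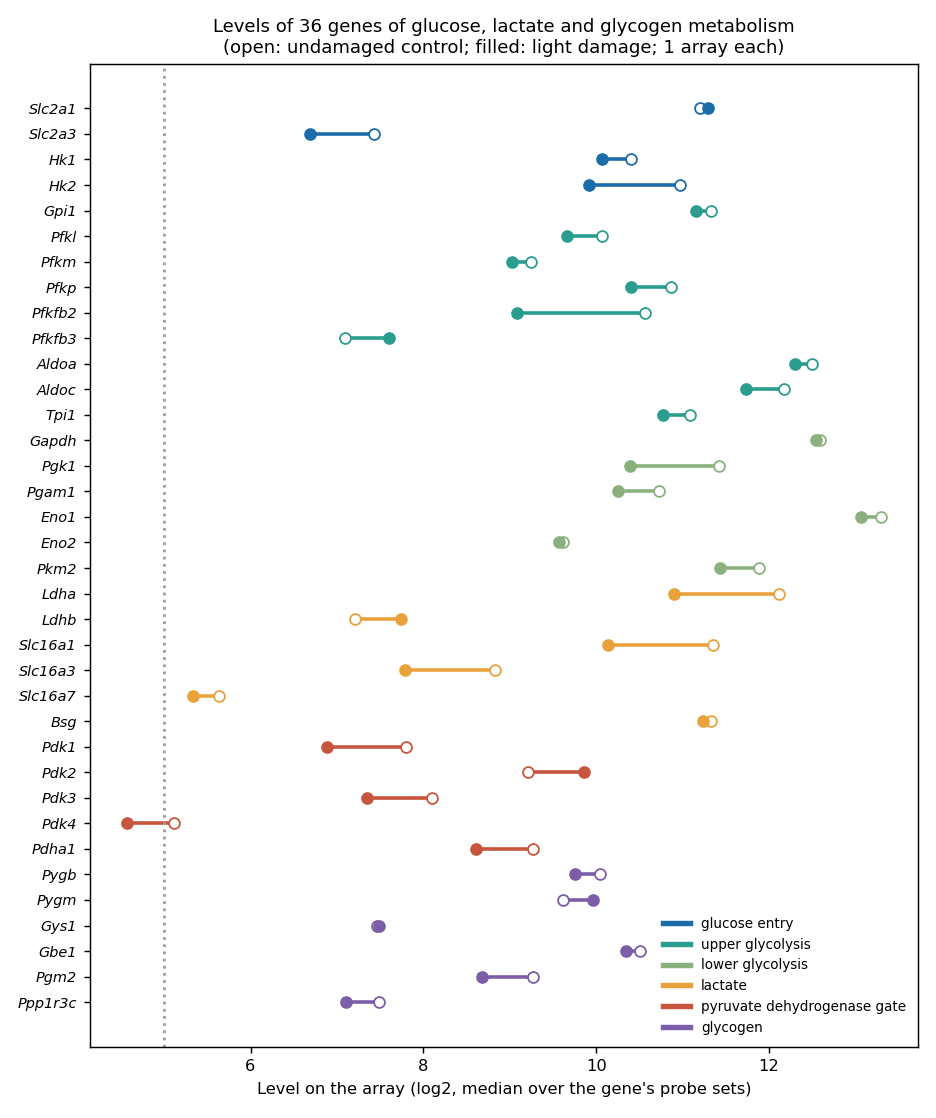
Levels (log2, median over probe sets) of the 36 genes on the control array (open circles) and on the light damage array (filled circles), ordered and coloured by role; the dotted line marks a level of 5. The longest bars belong to Pfkfb2, Ldha and Slc16a1, Pdk2 and Pfkfb3 are among the few whose filled circle is on the right, and levels of different genes are not comparable.

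Lactate dehydrogenase turns pyruvate to lactate and back, with the A subunit favouring lactate and the B subunit pyruvate. Ldha was 12.11 in the control and 10.90 after light damage. Its difference was -0.85 ± 0.80 over 7 probe sets, of which 6 were below 0, and the 1 above 0 gave 1.09. That probe set was also the weakest in the control, at 9.23. Ldhb was 7.21 in the control and 7.74 after light damage, with 0.27 ± 0.71 and 5 of 7 probe sets above 0. The medians were 1.12 apart, and 6 of 7 Ldha probe sets were below the Ldhb median. Of the Ldhb probe sets, 3 stand among genes of another chromosome, and the other 4 gave 0.26. The strongest Ldhb probe set gave -0.24, so the sign of Ldhb depends on the probe set.

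Lactate crosses the membrane through monocarboxylate transporters, with Slc16a1 (Mct1) found on glia, endothelium and photoreceptors, Slc16a3 (Mct4) known for lactate export from glycolytic cells, and Slc16a7 (Mct2) for uptake by neurons. Slc16a1 was 11.35 in the control against 10.14 on the light damage array. Each of its 6 probe sets was below 0, 4 were lower by 1 or more, and the difference was -1.19 ± 0.51, a 2.28-fold lower value that stood at rank 256 from the lowest of all genes. Slc16a3 was 8.82 and 7.78, with -0.96 ± 1.04. Its probe sets disagreed, as 6 of 8 were below 0, the strongest in mean level gave 0.46 and the weakest gave -2.70. Slc16a7 was 5.63 in the control and 5.33 after light damage, close to the minimum level, with a median of 0.08 ± 1.10 and 5 of 11 probe sets below 0. Basigin, encoded by Bsg, escorts Mct1 and Mct4 to the membrane. It was 11.33 in the control and 11.23 after light damage, with 0.08 ± 0.23 and 7 of 9 probe sets above 0. Its probe sets lay between -0.10 and 0.63, all above the highest of Slc16a1 at -0.38.

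At the pyruvate dehydrogenase gate, the kinases went in different directions. Pdk2, the broadly expressed kinase, was 9.21 in the control and 9.86 after light damage. All 13 probe sets were above 0, from 0.43 to 1.65, and the difference was 0.95 ± 0.32, a 1.93-fold higher value at rank 339 from the highest of all genes. It passed 1 under both scalings. Pdk1, the kinase known as a hypoxia target, was 7.80 and 6.88, with -0.96 ± 0.87 and 10 of 13 probe sets below 0. The medians of both kinases were 1.91 apart, the widest gap among the 12 pairs of related genes that were set side by side, and 12 of 13 Pdk1 probe sets lay below the lowest of Pdk2. The pairs were chosen after the values were seen. The strongest Pdk1 probe set gave 0.43.

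Pdk3, which is X-linked, was 8.10 in the control and 7.35 after light damage, with a median of -0.17 ± 0.79 and 9 of 14 probe sets below 0. Pdk4, a kinase induced by fasting in other tissues, was 5.12 and 4.57 (-0.41 ± 0.77, n = 11 probe sets), and with a mean level of 4.85 it was the 1 gene of the set under the minimum level. Pdha1, the X-linked catalytic subunit of the complex itself, was 9.26 in the control and 8.61 after light damage. Its difference was -0.63 ± 0.36 with 11 of 12 probe sets below 0, and 3 probe sets shared with Map3k15 gave -0.14. The part of the sex mix in the values of Pdk3 and Pdha1 was not tested.

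**Figure D4:**
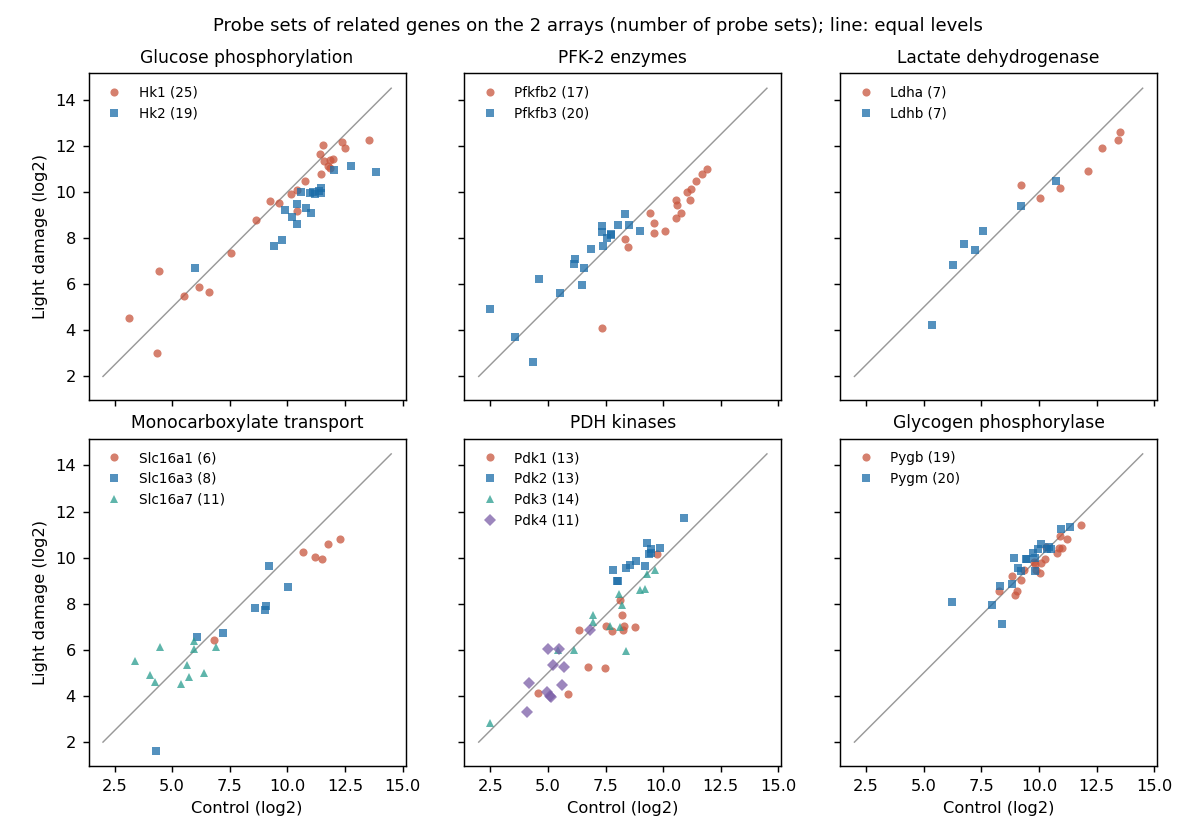
Level after light damage against level in the control (both log2) for every probe set of related genes in 6 panels, with the number of probe sets in brackets and a line of equal levels. Hk2, Pfkfb2 and Slc16a1 probe sets lie under the line except 1 of Hk2, those of Pdk2 lie over it, and Pdk1 lies mostly under it.

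Among the 6 glycogen genes none was past 1 in either direction. Their median was -0.30, with 4 below 0. Of the phosphorylases that break glycogen down, the brain form Pygb was 10.05 in the control and 9.76 after light damage (-0.33 ± 0.33, 13 of 19 probe sets below 0). The muscle form Pygm was 9.62 and 9.96 (0.25 ± 0.59, 15 of 20 above 0). Their medians were 0.58 apart, and 17 of 19 Pygb probe sets were below the Pygm median. The strongest Pygm probe set gave -0.0011.

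Glycogen synthase, Gys1, was 7.47 in the control and 7.49 after light damage, with 0.16 ± 0.42 over 16 probe sets. The 2 further probe sets that Gys1 shares with Ruvbl2 gave 1.22 and do not enter this value. The branching enzyme Gbe1 was 10.51 and 10.34, with -0.43 ± 0.65 and 11 of 16 probe sets below 0. Phosphoglucomutase links glycogen to glycolysis. The gene listed as Pgm2, which RefSeq now names Pgm1, was 9.27 in the control and 8.68 after light damage (-0.37 ± 0.66, 9 of 12 below 0). Ppp1r3c, a scaffold that brings protein phosphatase 1 to glycogen and favours synthesis, was 7.49 and 7.10. Its difference of -0.26 ± 0.12 had the smallest spread of the set, with all 4 probe sets below 0.

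Around these genes, 64 other genes of the pathway were listed, of which 60 had a value and 53 reached a mean level of 5. Their median difference was -0.0018, and 27 of 53 were below 0. By 1 or more, 4 were lower (7.55%, beside the background of 3.48%) and 0 higher. Of the 4, 3 encode subunits of the pyruvate dehydrogenase complex, the enzyme that the Pdk kinases act on. Dld was 8.67 in the control and 7.72 after light damage (-1.53 ± 1.00), Pdhb was 10.35 and 9.22 (-1.12 ± 0.45), and Dlat was 8.34 and 7.48 (-1.003 ± 0.60). Dlat lies at the threshold, and these calls were not rerun under the other scalings. With Pdha1 and with Pdhx (-0.60 ± 0.85), which was picked out after its value was seen, the 5 subunit genes that reached a mean level of 5 had negative differences. Over all genes at that level, 52.7% were below 0. Pdha2, a further gene of the complex with a mean level of 3.85, was at 0.37 ± 0.67. The fourth was Pgm2l1, which makes glucose 1,6-bisphosphate in brain, at -1.32 ± 0.96 with all 19 probe sets below 0.

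The citric acid cycle, which the complex feeds, had 14 of 16 genes below 0 (87.5%, beside 52.7% of all genes and 64.9% of those at 9 or more) and a median of -0.52. By 1 or more, 2 were lower (12.5%, beside 3.48% and 7.22%) and none higher. They were the succinyl-CoA ligase subunits Sucla2, at 9.52 in the control and 7.87 after light damage (-1.20 ± 0.73), and Suclg1, at 8.04 and 7.01 (-1.04 ± 0.80). The 6 genes of the pentose phosphate pathway, which makes NADPH from glucose 6-phosphate, had a median of -0.04, with Pgls at 0.57 ± 0.49 and Rpia at -0.54 ± 1.06 as the largest in size.

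Among 16 genes of the hypoxia-inducible factor pathway, 1 was higher and 1 lower by 1 or more (6.25% each), and 14 were within 1. The shares of all genes were 1.75% higher and 3.48% lower. Of the 16, 7 were above 0 and 9 below 0 (56.25%, beside 52.7% of all genes), and the median was -0.18. Epas1, which encodes the alpha subunit of HIF-2, was 10.04 in the control and 10.85 after light damage (1.08 ± 0.37), with all 19 probe sets above 0. P4ha1, a collagen prolyl hydroxylase and known target, was 9.01 and 8.35 (-1.03 ± 0.63). Hif1a, named after its value was seen, was 11.05 and 10.28 (-0.92 ± 0.49, 16 of 18 probe sets below 0), so both alpha subunits had opposite signs.

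**Figure D5:**
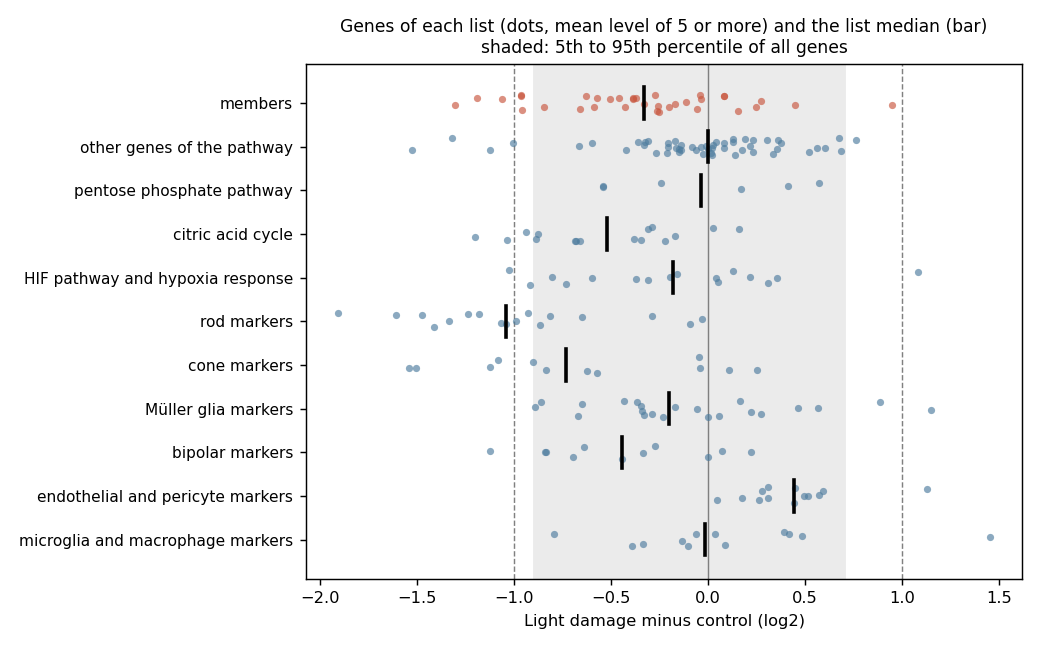
Difference (light damage minus control, log2) of each gene (dots) in the set (red, labelled members) and in other gene lists (blue), with the list median (bar); the shaded band spans the middle of all genes from percentile 5 to percentile 95 (-0.90 to 0.70). The set and the citric acid cycle lie mostly left of 0, rod and cone markers farther left, MG markers widely on both sides of 0, and endothelial and pericyte markers to the right.

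Marker lists of other cells also differed between the arrays. Rod markers, at -1.04, lay below the set's -0.33, and Slc24a1 (-1.41 ± 0.51) and Cnga1 (-1.47 ± 0.65) exceeded Hk2 in size, while Sag and Gnat1, picked out after their values were seen, were within 0.5 of 0. Bipolar markers had a median of -0.45 with 1 of 11 lower by 1 or more. Amacrine and ganglion markers were at -0.11 with 7 of 13 below 0, and 1, Thy1 (1.32 ± 0.60), was higher by 1 or more. Microglia and macrophage markers were at -0.01 with 6 of 12 below 0, and 1, Cd68 (1.45 ± 1.02), was higher by 1 or more. Over all genes, 1.75% were higher by that much. Pigment epithelium markers were at 0.07 with none past 1. All 13 endothelial and pericyte markers were above 0 with a median of 0.44, beside 7774 of all 16541 genes above 0. By 1 or more, 1 of them was higher, Rgs5 (1.13 ± 0.70). The median level of these markers was 5.65 in the control and 6.15 after light damage, near the minimum level of 5. The list was not uniform. Kdr was at 11.93 in the control, and Abcc9 had 25 of 45 probe sets above 0, both picked out after their values were seen. Astrocyte markers had a median of 0.47, with 5 of 6 above 0 and 1 higher by 1 or more. That was Gfap, also the intermediate filament of reactive MG, which was 5.68 in the control and 7.91 after light damage, with 3.05 ± 1.08. The part of these other cells in the values of the glucose genes was not tested.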

How the data were processed

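RNA of sorted MG was amplified, labelled and hybridised to 1 Mouse Gene 1.0 ST array per condition. The authors normalized the arrays with Affymetrix Power Tools and deposited a log2 level for each probe set. The version, the background correction and how probes were summarized were not given in the sources used here. A platform annotation assigned 87.8% of 241576 probe sets to 1 gene, 4672 to several and 24766 to none. A gene's difference was the median over its own probe sets of light damage minus control, with their SD (Python 3.11.15, pandas 2.3.3, numpy 2.4.6, statsmodels 0.14.6). Counts used a difference of 1 and a mean level of 5 or more. The array medians were 7.02 and 6.99; with 1 array per condition, their number limits the precision. The summaries were tested on simulated data with known shifts. Motifs were searched in RefSeq promoters (GRCm38.p6). All 36 genes were named; of the other lists, genes past 1 could be named, or else the 2 largest in size, and at most 4 markers per cell type. Genes and lists were chosen with earlier results of these data known. Alternatives covered scaling, an offset of 32 before the log2, the probe set summary, the minimum level and the threshold; probe sets standing apart and X-linked genes were left out as alternatives chosen after seeing the data.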

Additional observations from a re-analysis of the deposited data

How the results depend on the processing

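No paired analysis was possible because there was 1 array per condition. The alternatives were run for the set and for counts over all genes, not for the genes of the other lists. No gene of the set past 1 changed sign under any alternative run. The number of genes of the set lower by 1 or more was 3; it was 2 under quantile normalization and under removal of a loess trend, where Pfkfb2 no longer passed, 4 without probe sets standing apart or repeated, where Pgk1 joined, and 5 with the probe set of the highest level (Hk1, Hk2, Pgk1, Pkm2 and Slc16a1), where Pfkfb2 gave -0.93. A threshold of 0.5 gave 12 lower and 1 higher, and one of 1.5 gave 0 lower. Pdk2 passed 1 under quantile normalization and loess, so that 1 gene was higher in each. Both scalings also moved all genes, from 289 higher and 575 lower to 359 and 429 under quantile normalization and to 354 and 439 under loess, and the genes of the set below 0 from 28 to 23 (Slc2a1, Gpi1, Aldoa, Aldoc and Gapdh turned positive). The set's median of -0.33 was -0.22 and -0.21 under these scalings, that of lower glycolysis -0.28 and -0.27, and that of the lactate genes -0.26 under both. The mean over probe sets gave -0.23 for the lactate genes, and probe sets at a level of 5 or more gave -0.54. With the probe set of the highest level, medians moved from -0.42 to -0.89 for glucose entry, -0.25 to -0.41 for upper and -0.42 to -0.71 for lower glycolysis, -0.38 to -0.50 for lactate, -0.40 to 0.11 for the pyruvate dehydrogenase gate and -0.30 to -0.11 for glycogen. The gate thus changed sign, as did 7 genes: Pdk1 (0.43), Slc16a3 (0.46), Pdk4 (0.06), Pgm2 (0.06), Ldhb (-0.24), Slc16a7 (-0.76) and Pygm (-0.0011). Slc2a1 changed sign with the mean over probe sets, and Slc16a7 and Pdk4 with probe sets at a level of 5 or more. The causes were not tested. Without the X-linked genes the set's median was -0.30. Without probe sets standing apart or repeated it was -0.27, and this setting kept the 1 probe set of Gapdh.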

Other observations

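Probe set numbers follow the order of the genome, and 15 probe sets that the annotation gives to 1 gene of the set stand among those of genes on other chromosomes. They belong to Pgk1 (6), Ldhb (3), Pgam1 (2), Eno1, Gapdh, Gpi1 and Tpi1. For Tpi1 the 5 others gave -0.71 in place of -0.59. Of the 452 probe sets of the set, 299 (66.2%) were below 0, beside 52.0% of all probe sets with 1 gene. The 452 include those 15 and the 4 of Pgk1 that repeat values. Most of the set was strongly expressed, and this share was not computed for probe sets of strongly expressed genes alone. Counted by gene, 64.9% of all genes whose mean level reached 9 were below 0.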
